A study of Mus musculus with 8 samples.

Results

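The NRF2 antioxidant target genes examined here are 10 genes that encode enzymes and a transporter of the oxidant defence: Nqo1, Gclc, Gclm, Hmox1, Srxn1, Txnrd1, Gsr, Slc7a11, Cat and Ephx1. They were found by symbol among the 18691 genes listed in the deposited files, and all 10 had enough counts to be tested. The tissue was white fat of the epididymal pad from C57BL/6J mice aged 16 weeks, sequenced as polyadenylated RNA. There were 4 libraries labelled as Mrp4 knockout (Mrp4-/-, replicates 1, 2, 4 and 5) and 4 labelled wild type (WT, replicates 1, 2, 3 and 4), and no treatment is given for either group. Mrp4 is an efflux transporter of cyclic nucleotides and prostaglandins encoded by Abcc4. Neither the structure of the altered allele nor the number of mice behind the libraries is given in the labels, so the spread that each p-value rests on is that between libraries and may be technical.

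NRF2, encoded by Nfe2l2, is a transcription factor that KEAP1 holds in the cytosol and hands to a ubiquitin ligase. Oxidants and electrophiles modify KEAP1, and NRF2 then accumulates, pairs with small MAF proteins and binds antioxidant response elements near its target genes. BACH1 competes for the same elements and is itself released by heme. In fat, the products of these genes keep glutathione and thioredoxin reduced, remove peroxides, break down heme and clear reactive quinones and epoxides.

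The core of the antioxidant response element is often written TGACNNNGC or TGAGNNNGC, and both were sought on both strands in the 250 bases before each gene's start in the RefSeq table for GRCm38.p6. The table matched 7 of the 10 genes in 9 windows (3 starts for Txnrd1), and Hmox1, Gclc and Gsr had no entry. A match lay before a start of 4 of the 7 genes (Srxn1, Slc7a11, Gclm and Txnrd1) and in 4 of the 9 windows, while 23% of all 32851 windows in the table held one. No match overlapped another in the windows of these genes. The sequences below show Ephx1, the only gene with a window here that rose, beside Srxn1, which has a match on each strand and did not change detectably. The shorter stretches are the matches of the other 3 genes with 15 bases on each side. Each runs 5′ to 3′ on the gene's strand, and capitals mark the fixed letters of a match, which read as their reverse complement where the match lies on the opposite strand.

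Ephx1, 250 bases before the start, GRCm38.p6 chr1:181017570-181017819, minus strand, no match: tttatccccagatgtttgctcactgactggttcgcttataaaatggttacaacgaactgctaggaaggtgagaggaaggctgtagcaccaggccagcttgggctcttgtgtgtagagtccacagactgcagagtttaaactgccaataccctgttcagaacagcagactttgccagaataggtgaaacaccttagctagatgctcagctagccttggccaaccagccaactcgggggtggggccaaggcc
Srxn1, 250 bases before the start, GRCm38.p6 chr2:152105274-152105523, plus strand, 2 matches: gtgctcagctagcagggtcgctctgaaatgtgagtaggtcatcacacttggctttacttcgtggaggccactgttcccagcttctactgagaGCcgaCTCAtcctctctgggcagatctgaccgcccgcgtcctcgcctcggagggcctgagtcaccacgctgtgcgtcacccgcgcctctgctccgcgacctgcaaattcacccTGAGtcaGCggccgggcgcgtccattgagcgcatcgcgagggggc
Slc7a11, match beginning 97 bases before the start, GRCm38.p6 chr3:50443687-50443725, minus strand: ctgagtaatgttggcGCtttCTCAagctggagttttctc
Gclm, match beginning 134 bases before the start, GRCm38.p6 chr3:122245408-122245446, plus strand: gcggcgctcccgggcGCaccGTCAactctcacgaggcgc
Txnrd1, second start in the table, match beginning 92 bases before it, GRCm38.p6 chr10:82859099-82859137, plus strand: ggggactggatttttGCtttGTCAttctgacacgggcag

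These letters are a description of the windows. A match is not a bound site, and no match says only that the letters are not in that window.

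Before the members, the libraries themselves were checked. The total of expected counts per library was 14064681 to 14700114 in those labelled Mrp4 KO and 14318943 to 14610104 in WT. Abcc4 (gene 239273) was at 3.54, 3.68, 3.89 and 3.31 FPKM in the libraries labelled Mrp4 KO and at 3.59, 3.33, 3.81 and 3.33 FPKM in WT, so the 2 groups overlapped (edgeR adjusted p = 0.692; 95% interval of the fold from 0.853 to 1.09). FPKM, fragments scaled to transcript length and to the depth of the library, is a level per length and can be set side by side between genes. The Abcc4 transcript thus does not check the genotype label, and every direction below rests on that label. Summed adipocyte markers (12 genes, Adipoq among them) were at 23424 to 27820 FPKM in the libraries labelled Mrp4 KO and at 28754 to 33116 FPKM in WT. Of these 12 genes 1 rose (Lep), 3 fell (Plin1, Retn and Cfd) and 8 did not pass. The lower sum rested mainly on Cfd, which encodes adipsin, so it is not a fall shared by these genes. Cfd was at 3466 ± 1452 FPKM in the libraries labelled Mrp4 KO and 9813 ± 2510 FPKM in WT. Fabp4, the most abundant of them, was at 11969 ± 1891 FPKM in the libraries labelled Mrp4 KO and 10605 ± 1513 FPKM in WT, and did not pass (edgeR adjusted p = 0.613). Adipoq was at 2457 ± 133 FPKM in the libraries labelled Mrp4 KO and 2614 ± 181 FPKM in WT, and did not pass (edgeR adjusted p = 0.325). Summed liver markers (20 genes, all of them detected) were at 878 to 1665 FPKM in the libraries labelled Mrp4 KO and at 55.9 to 142 FPKM in WT, and all 20 rose. In bulk tissue, fewer cells of a type and less RNA per cell cannot be told apart.

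Of the 10 genes, 2 rose in the libraries labelled Mrp4 KO, Hmox1 and Ephx1, and none fell. The other 8, which include both subunits of the enzyme that starts glutathione synthesis and the classical NRF2 reporter Nqo1, did not pass. Over all 14257 genes tested, 18.3% passed at an adjusted p under 0.05 (quasi-likelihood test of edgeR, adjusted over all of them by the Benjamini-Hochberg method), 10.2% higher and 8.05% lower. A count of 2 in 10 is near the share of 18.3%, and both calls were higher, beside 10.2%. The group as a whole was not tested. The median log2 fold change of the 10 was 0.00, and that of all tested genes was -0.00. In 3 of the 10 genes the FPKM ranges of the groups did not overlap (Hmox1 and Ephx1 higher, Txnrd1 lower), where 23.5% of all tested genes did not overlap (16.4% of all tested genes higher and 7.08% lower). The FPKM values carry no TMM scaling between libraries, while the edgeR folds do. Small differences in FPKM and in fold can therefore differ in sign. The count of members that passed was 4 with DESeq2, which called 23.3% of all genes, and 2 with library size alone as the scale, which called 18.4%. It was 1 at a threshold of 0.01 (3.86% of all genes) and 4 at a threshold of 0.1 (29.3%). With replicates 1, 2, 4 and 5 labelled Mrp4 KO left out in turn it was 2, 3, 3 and 2, beside 10.2%, 11.5%, 9.61% and 10.5% of all genes. With WT replicates 1 to 4 left out in turn it was 2, 4, 2 and 2, beside 9.48%, 25.5%, 10.2% and 8.12%. With the replicate number as a block 0 members passed, beside 0.989% of all genes, although the numbers were not taken as pairs.

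**Figure D1:**
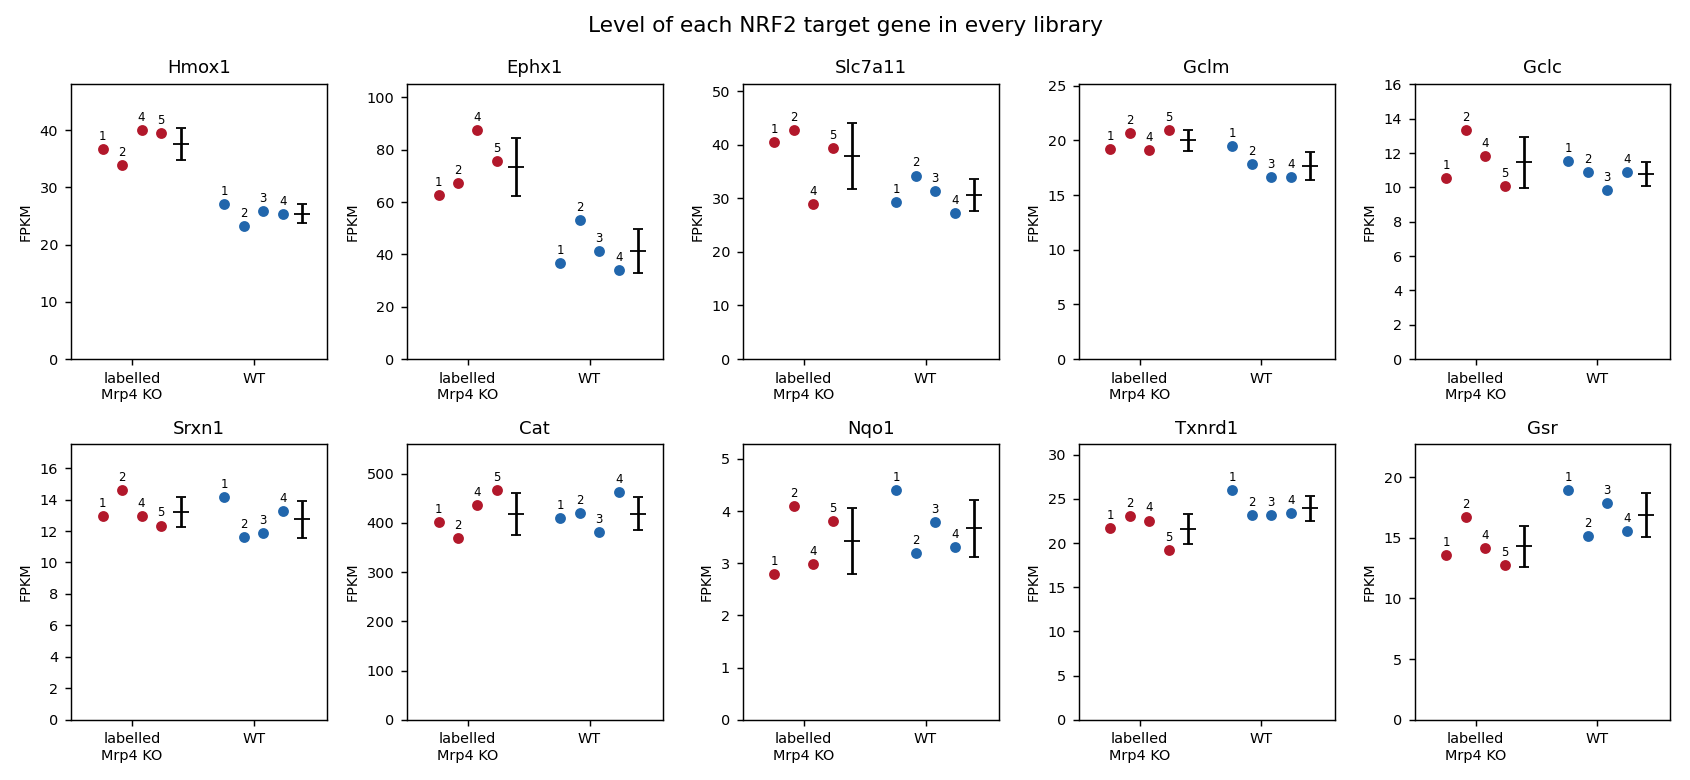
Level in FPKM (vertical axis, from 0) of each of the 10 genes in each library, with the replicate number beside its point; red points are libraries labelled Mrp4 KO and blue points WT, and black bars are the mean ± SD (n = 4 each). Hmox1 and Ephx1 lie higher in all 4 libraries labelled Mrp4 KO than in any WT library, while the groups overlap for 7 of the other 8.

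Hmox1 (gene 15368) encodes the inducible heme oxygenase, which opens heme into biliverdin, carbon monoxide and iron. It was at 36.73, 33.96, 40.13 and 39.44 FPKM in replicates 1, 2, 4 and 5 labelled Mrp4 KO, against 27.16, 23.25, 25.85 and 25.42 FPKM in WT replicates 1 to 4. The lowest library labelled Mrp4 KO was above the highest WT library. The means were 37.6 ± 2.82 FPKM in the libraries labelled Mrp4 KO and 25.4 ± 1.62 FPKM in WT (SD, n = 4 each), from 789 to 933 counts and 529 to 625 counts a library. Hmox1 rose 1.41-fold (95% interval 1.25 to 1.61; log2 fold change 0.50 ± 0.08 SE, edgeR adjusted p = 0.00516). It passed with every library left out in turn, with log2 fold changes from 0.45 to 0.55.

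Ephx1 (gene 13849) encodes the microsomal epoxide hydrolase, which turns reactive epoxides into diols and is abundant in liver. It was at 62.65, 67.22, 87.71 and 75.74 FPKM in replicates 1, 2, 4 and 5 labelled Mrp4 KO, against 36.57, 53.09, 41.31 and 34.19 FPKM in WT replicates 1 to 4. Replicate 4 labelled Mrp4 KO was the highest of all, WT replicate 2 was the highest of its group, and the groups did not overlap. The means were 73.3 ± 11 FPKM in the libraries labelled Mrp4 KO and 41.3 ± 8.4 FPKM in WT (SD, n = 4 each). Ephx1 rose 1.71-fold (95% interval 1.36 to 2.14; log2 fold change 0.77 ± 0.15 SE, edgeR adjusted p = 0.0109), and from 0.67 to 0.90 on the log2 scale with a library left out, passing each time.

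Markers of other cell types moved beside these 2 genes. Among macrophage markers, 4 of 14 tested genes rose, 1 fell and 9 did not pass, with a summed level of 852 to 1343 FPKM in the libraries labelled Mrp4 KO and 719 to 837 FPKM in WT. Lyz2 made up most of that sum, at 719 ± 179 FPKM in the libraries labelled Mrp4 KO and 492 ± 39.1 FPKM in WT, and did not pass (edgeR adjusted p = 0.0568). Itgax, which encodes an integrin, had the largest log2 fold change of the tested macrophage markers (1.53). It was at 10.89, 8.96, 9.83 and 8.18 FPKM in the libraries labelled Mrp4 KO and at 1.88, 3.98, 2.55 and 4.14 FPKM in WT. Trem2, a marker of lipid-associated macrophages, was at 10.5 ± 1.24 FPKM in the libraries labelled Mrp4 KO and 7.88 ± 1.19 FPKM in WT. It did not pass (log2 fold change 0.34, edgeR adjusted p = 0.111). The marker that fell was Timd4 (log2 fold change -0.75, edgeR adjusted p = 0.00605). Cd163, the receptor through which macrophages take up hemoglobin, was at 28.4 ± 5.33 FPKM in the libraries labelled Mrp4 KO and 25.4 ± 5.67 FPKM in WT, and did not pass (log2 fold change 0.10, edgeR adjusted p = 0.706). Hmox1 was highest in replicate 4 labelled Mrp4 KO and the macrophage sum in replicate 1. Clec4f, a marker of liver macrophages, was too low to be tested, at 0.27 to 0.58 FPKM in the libraries labelled Mrp4 KO and 0 to 0.03 FPKM in WT. The part of macrophages in the rise of Hmox1 was not tested.

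Beside Ephx1, serum albumin (Alb) was at 309.98, 552.58, 508.84 and 496.33 FPKM in replicates 1, 2, 4 and 5 labelled Mrp4 KO and at 40.05, 23.12, 23.51 and 17.45 FPKM in WT replicates 1 to 4. Replicate 1 labelled Mrp4 KO had both the lowest Alb and the lowest Ephx1 of its group. In WT the order differed: replicate 2 was the highest for Ephx1, while its summed liver markers, 55.9 FPKM, were the lowest. The part of liver transcripts in the rise of Ephx1 was not tested. Cat, also abundant in liver, had the same mean in both groups, 418 FPKM, and the part of liver transcripts in its level was not tested either. Hmox1 and Ephx1 also stand beside endothelial markers, of which 5 of 8 rose (summed level 435 to 454 FPKM in the libraries labelled Mrp4 KO, 275 to 395 FPKM in WT), whose part was not tested either. Mesothelial markers lay lower, with a summed level of 63.2 to 169 FPKM in the libraries labelled Mrp4 KO and 167 to 266 FPKM in WT; 0 of 8 rose, 1 (Wt1) fell and 7 did not pass. Of the epididymis markers, all too low to be tested, Crisp1 was at 13.47 FPKM in WT replicate 2, at 0.05 to 0.6 FPKM in the other WT libraries and at 0 to 0.05 FPKM in those labelled Mrp4 KO. The other epididymis markers listed were not raised in WT replicate 2: Adam7 and Lcn8 were at 0 FPKM there. Rnase10 was at 0.28 FPKM there, beside 0.29 FPKM in WT replicate 4. Without WT replicate 2 the log2 fold change was 0.90 for Ephx1 (edgeR adjusted p = 0.00231) and 0.45 for Hmox1 (edgeR adjusted p = 0.00621).

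**Figure D2:**
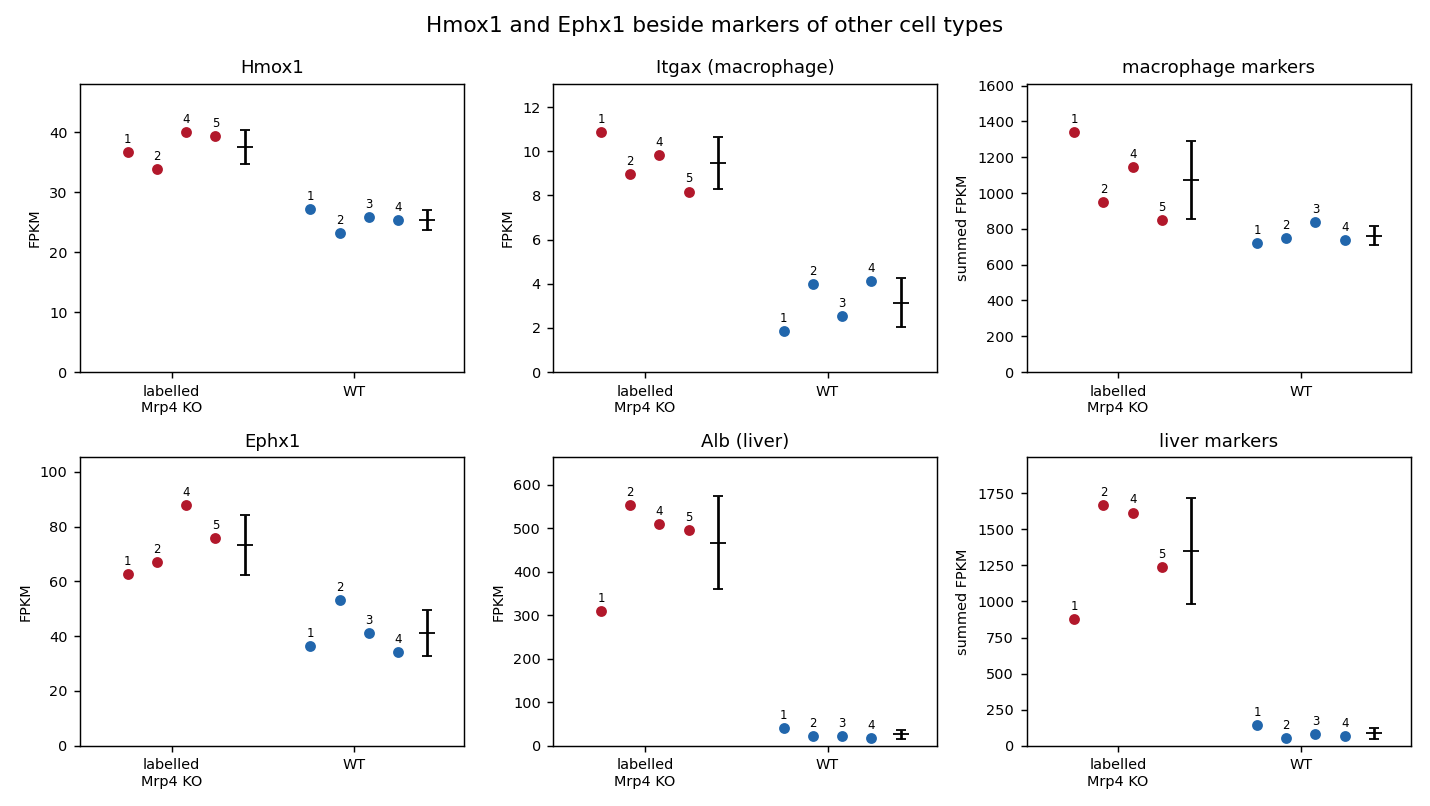
Level in FPKM (vertical axes, from 0) of Hmox1, Itgax and the summed macrophage markers in the upper row and of Ephx1, Alb and the summed liver markers in the lower row, one point a library with its replicate number, red for libraries labelled Mrp4 KO and blue for WT, with mean ± SD (n = 4 each). All 6 measures are higher in every library labelled Mrp4 KO than in any WT library. Among the libraries labelled Mrp4 KO, Hmox1 is highest in replicate 4, and Itgax and the macrophage sum are highest in replicate 1. Ephx1 is highest in replicate 4 there, and Alb and the liver sum are highest in replicate 2.

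Glutathione synthesis is limited by glutamate-cysteine ligase and by the supply of cysteine. Gclc (gene 14629), the catalytic subunit, was at 10.54, 13.37, 11.84 and 10.07 FPKM in the libraries labelled Mrp4 KO and at 11.53, 10.92, 9.86 and 10.9 FPKM in WT. The groups overlapped throughout, and the interval of the fold ran from 0.873 to 1.18 (edgeR adjusted p = 0.912). Gclm (gene 14630), the modifier subunit, was at 19.23, 20.66, 19.15 and 21 FPKM in the libraries labelled Mrp4 KO and at 19.45, 17.87, 16.64 and 16.68 FPKM in WT. Here WT replicate 1 alone reached the range of the libraries labelled Mrp4 KO. Its log2 fold change was 0.12 ± 0.07, with a fold interval from 0.966 to 1.22 (edgeR adjusted p = 0.292).

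Slc7a11 (gene 26570) encodes xCT, the transporter that brings in cystine in exchange for glutamate. It was at 40.49, 42.83, 29.01 and 39.41 FPKM in replicates 1, 2, 4 and 5 labelled Mrp4 KO, against 29.34, 34.25, 31.41 and 27.23 FPKM in WT. In the group labelled Mrp4 KO 3 libraries were above every WT library, and replicate 4 was below 3 of the 4 WT libraries. With all libraries the log2 fold change was 0.25 ± 0.12 and did not pass (edgeR adjusted p = 0.171; fold interval 0.986 to 1.43). Without replicate 4 labelled Mrp4 KO it was 0.36 and passed (edgeR adjusted p = 0.0404), and without each other library it did not, with log2 fold changes down to 0.19.

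Glutathione and thioredoxin, once oxidised, are restored by reductases that draw on NADPH. Gsr (gene 14782), glutathione reductase, was at 13.59, 16.71, 14.16 and 12.77 FPKM in the libraries labelled Mrp4 KO and at 18.92, 15.11, 17.85 and 15.56 FPKM in WT. Replicate 2 labelled Mrp4 KO lay inside the WT range and the other 3 below it. Txnrd1 (gene 50493), the cytosolic thioredoxin reductase, was at 21.72, 23.04, 22.55 and 19.21 FPKM in the libraries labelled Mrp4 KO and at 25.97, 23.15, 23.18 and 23.36 FPKM in WT. Its groups did not overlap, but the highest library labelled Mrp4 KO (23.04 FPKM) lay close to the lowest WT library (23.15 FPKM), and WT replicate 1 stood above the other WT libraries. Neither gene passed: Gsr had a log2 fold change of -0.30 ± 0.10 (fold interval 0.692 to 0.95, edgeR adjusted p = 0.0654) and Txnrd1 one of -0.21 ± 0.07 (fold interval 0.771 to 0.966, edgeR adjusted p = 0.0687). Both passed with DESeq2 (adjusted p = 0.047 for Gsr and 0.046 for Txnrd1). Both also passed without WT replicate 2 (edgeR adjusted p = 0.0285 for Gsr and 0.049 for Txnrd1), and Gsr without replicate 2 labelled Mrp4 KO (edgeR adjusted p = 0.0405).

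Srxn1 (gene 76650), sulfiredoxin, which repairs overoxidised peroxiredoxins, was at 12.97, 14.59, 12.95 and 12.35 FPKM in the libraries labelled Mrp4 KO and at 14.16, 11.62, 11.87 and 13.29 FPKM in WT. Its fold was 0.991, with an interval from 0.864 to 1.14 (edgeR adjusted p = 0.933). Cat (gene 12359), the peroxisomal catalase, was the most abundant of the 10, at 401.45, 368.32, 435.77 and 466.01 FPKM in the libraries labelled Mrp4 KO and at 410.22, 420.56, 380.32 and 462.26 FPKM in WT. The mean was 418 FPKM in each group, and the interval of the fold ran from 0.805 to 1.13 (edgeR adjusted p = 0.705). Nqo1 (gene 18104), a quinone reductase, was the least abundant, at 2.8, 4.09, 2.99 and 3.82 FPKM in the libraries labelled Mrp4 KO and at 4.4, 3.2, 3.79 and 3.31 FPKM in WT. It rested on 61 to 90 counts a library labelled Mrp4 KO and 69 to 96 counts a WT library, and its interval was the widest of the genes that did not pass, from 0.681 to 1.17 (edgeR adjusted p = 0.533).

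**Figure D3:**
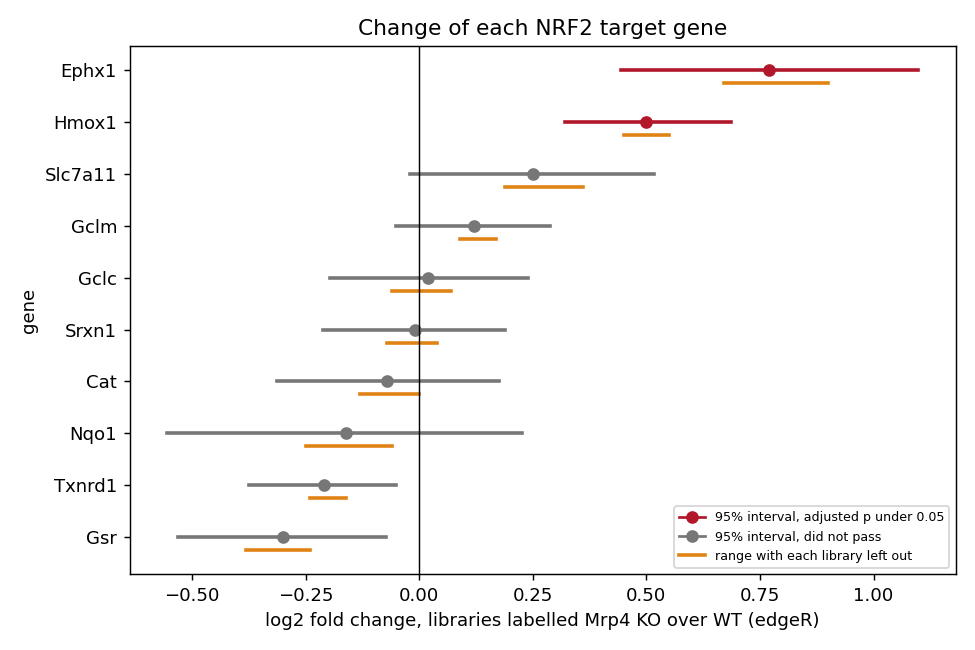
Log2 fold change of each of the 10 genes, libraries labelled Mrp4 KO over WT (horizontal axis), with its 95% interval from edgeR (red where the adjusted p was under 0.05, grey where it was not) and, in orange, the range of the value when each library was left out. The intervals of Ephx1 (0.77) and Hmox1 (0.50) lie wholly above 0. Those of Gsr (-0.30, the lowest) and Txnrd1 (-0.21) lie wholly below 0, although neither gene passed. The intervals are not adjusted for the number of genes tested.

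The levels of the 10 genes spanned a wide range, and their order by mean FPKM was the same in both groups: Cat, Ephx1, Slc7a11, Hmox1, Txnrd1, Gclm, Gsr, Srxn1, Gclc and Nqo1. In the libraries labelled Mrp4 KO the ranges of neighbours overlapped for Slc7a11 and Hmox1, for Txnrd1 and Gclm, for Gsr and Srxn1 and for Srxn1 and Gclc. In WT they overlapped for Ephx1 and Slc7a11, for Hmox1 and Txnrd1 and for Gclm and Gsr. Nqo1 (mean 3.42 FPKM in the libraries labelled Mrp4 KO, 3.68 FPKM in WT) was below the median of all tested genes, 8.35 FPKM in the libraries labelled Mrp4 KO and 7.87 FPKM in WT, and the other 9 were above it.

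Within each group, the library with the highest level was often the same one. Replicate 2 labelled Mrp4 KO was the highest of its group for 6 of the 10 genes (Nqo1, Gclc, Srxn1, Txnrd1, Gsr and Slc7a11), while it was the highest for 27.5% of all tested genes. WT replicate 1 was the highest of its group for 7 (Nqo1, Gclc, Gclm, Hmox1, Srxn1, Txnrd1 and Gsr), against 27.1% of all tested genes. The 5 genes in both sets, Nqo1, Gclc, Srxn1, Txnrd1 and Gsr, thus peaked in the same library within each group. The median coefficient of variation of the 10 genes was 11% in the libraries labelled Mrp4 KO and 8.77% in WT, against 9.12% in the libraries labelled Mrp4 KO and 10.7% in WT over the 12510 tested genes whose mean reached 1 FPKM.

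Of 17 regulators tested, 0 rose and 0 fell by edgeR, 3 (Nfe2l3, Keap1 and Bach2) had an unadjusted p under 0.05, and DESeq2 called 1 lower, Nfe2l3. Without WT replicate 2, 3 passed with edgeR (Nfe2l3 lower, Bach2 and Nfe2l1 higher), and without each other library 0 did. For this and the lists that follow, the shares over all tested genes with all libraries by edgeR are those given above, 18.3% in all, 10.2% higher and 8.05% lower. The counts with a library left out stand beside other shares: 25.5% without WT replicate 2 and 8.12% to 11.5% without each other library. Those with DESeq2 stand beside 23.3%, and those with library size alone beside 18.4%. Nfe2l2, which encodes NRF2, was at 43.33, 39.37, 42.21 and 36.34 FPKM in the libraries labelled Mrp4 KO and at 42.56, 41.88, 50.83 and 40.05 FPKM in WT (edgeR adjusted p = 0.145). Keap1, its repressor, was at 16.1 ± 0.913 FPKM in the libraries labelled Mrp4 KO and 17.3 ± 0.76 FPKM in WT (edgeR adjusted p = 0.0897). Bach1, the competing repressor, was at 8.56 ± 0.774 FPKM in the libraries labelled Mrp4 KO and 8.18 ± 0.639 FPKM in WT (edgeR adjusted p = 0.995). The related factor Nfe2l3 was at 0.78 ± 0.169 FPKM in the libraries labelled Mrp4 KO and 1.34 ± 0.447 FPKM in WT (edgeR adjusted p = 0.0605). Bach2 was at 1.04 ± 0.106 FPKM in the libraries labelled Mrp4 KO and 0.805 ± 0.117 FPKM in WT (edgeR adjusted p = 0.119), and did not pass, nor did Rbx1, a subunit of the ligase that takes NRF2 to degradation.

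Among 23 other tested genes often named as NRF2 targets, 2 rose, 2 fell and 19 did not pass, with a median log2 fold change of -0.12. The number that passed was 7 without WT replicate 2, 2 without replicate 1, 2 or 4 labelled Mrp4 KO, and 3 without each of the others. Both that fell act in sugar and malate metabolism. Tkt, transketolase of the pentose phosphate pathway, was at 158 ± 12.2 FPKM in the libraries labelled Mrp4 KO and 498 ± 236 FPKM in WT (log2 fold change -1.73, edgeR adjusted p = 0.00741). Me1, malic enzyme, which makes NADPH, was at 148 ± 24.4 FPKM in the libraries labelled Mrp4 KO and 414 ± 241 FPKM in WT (log2 fold change -1.55, edgeR adjusted p = 0.021). WT replicate 1 was highest for both, at 819.77 FPKM for Tkt and 758.28 FPKM for Me1, and the call of Me1 was lost in 3 of the 8 cases with a library left out. Both that rose, Slc48a1 and Blvra, belong to the heme pathway.

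Around the Hmox1 reaction, 3 of 16 tested genes of heme and iron handling rose, 0 fell and 13 did not pass; 6 passed without WT replicate 2 and 2 without each other library. Slc48a1, which moves heme out of endosomes and lysosomes, was at 173.23, 162.75, 190.13 and 217.09 FPKM in the libraries labelled Mrp4 KO and at 108.75, 142.91, 118.15 and 113.92 FPKM in WT (log2 fold change 0.56 ± 0.12, edgeR adjusted p = 0.0145). Blvra, biliverdin reductase, which takes the product of heme oxygenase on to bilirubin, was at 21.07, 22.68, 22.37 and 24.85 FPKM in the libraries labelled Mrp4 KO and at 12.67, 19.6, 13.89 and 17.64 FPKM in WT. The groups of both genes did not overlap. The log2 fold change of Blvra was 0.45 ± 0.13 (edgeR adjusted p = 0.0441), and its call was lost in 7 of the 8 cases with a library left out. Hpx, which encodes the plasma protein hemopexin made by the liver, rose more (44 ± 9.04 FPKM in the libraries labelled Mrp4 KO and 4.85 ± 4.01 FPKM in WT; edgeR adjusted p = 0.00418) and stands beside the liver markers. Alas1, the enzyme that starts heme synthesis, did not pass at 97 ± 17.4 FPKM in the libraries labelled Mrp4 KO and 134 ± 32.3 FPKM in WT (edgeR adjusted p = 0.082).

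Of 13 tested genes of glutathione turnover and cysteine supply, 4 rose, 0 fell and 9 did not pass, with a median log2 fold change of 0.27; 2 passed without WT replicate 4 and 3 to 5 without each other library. Cbs and Cth, the enzymes that pass sulfur from homocysteine to cysteine and are strong in liver, rose most among the genes named from that list. Cbs was at 6.11, 8.39, 7.11 and 8.77 FPKM in the libraries labelled Mrp4 KO and at 1.74, 3.8, 2.9 and 2.84 FPKM in WT (log2 fold change 1.36 ± 0.21, edgeR adjusted p = 0.00377). Cth was at 8.98 ± 0.543 FPKM in the libraries labelled Mrp4 KO and 5.14 ± 1.02 FPKM in WT (log2 fold change 0.74 ± 0.14, edgeR adjusted p = 0.00888). Gss, glutathione synthetase, which acts after the Gclc and Gclm enzyme, was at 12.6 ± 1.23 FPKM in the libraries labelled Mrp4 KO and 9.48 ± 1.11 FPKM in WT (log2 fold change 0.35 ± 0.11, edgeR adjusted p = 0.0488), and its call was lost with any 1 of the 8 libraries left out. The liver markers given above moved with these genes as well, and their part was not tested.

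The enzymes that remove peroxides and superoxide moved in both directions, 5 higher, 3 lower and 9 not passing of 17 tested, where 18.3% of all tested genes passed. The 8 that passed became 2 without WT replicate 4, 3 without replicate 4 labelled Mrp4 KO, 4 without WT replicate 3, 5 without WT replicate 1 or replicate 2 labelled Mrp4 KO, and 6 to 8 without each of the others. Gpx3, the secreted glutathione peroxidase, was at 365.83, 529.87, 403.33 and 281.47 FPKM in the libraries labelled Mrp4 KO and at 852.2, 941.79, 1034.1 and 828.26 FPKM in WT (log2 fold change -1.27 ± 0.17, edgeR adjusted p = 0.00183). Sod1, the cytosolic superoxide dismutase, was at 353 ± 12.4 FPKM in the libraries labelled Mrp4 KO and 490 ± 72.9 FPKM in WT (log2 fold change -0.53 ± 0.11, edgeR adjusted p = 0.0159). Prdx5, a peroxiredoxin of mitochondria and peroxisomes, rose (265 ± 7.69 FPKM in the libraries labelled Mrp4 KO, 197 ± 25.3 FPKM in WT; edgeR adjusted p = 0.0172), as did Gpx7, a peroxidase of the endoplasmic reticulum (17.1 ± 1.16 FPKM in the libraries labelled Mrp4 KO, 11 ± 2.18 FPKM in WT; edgeR adjusted p = 0.0186). The falls of Gpx3 and Sod1 were both larger on the log2 scale than any change among the 8 members that did not pass. The call of Prdx5 was lost in 1 case and that of Gpx7 in 2 cases with a library left out.

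Of 16 tested thioredoxin and glutaredoxin genes, 0 rose and 1 fell: the mitochondrial thioredoxin gene Txn2, at 86.2 ± 4.06 FPKM in the libraries labelled Mrp4 KO and 105 ± 9.86 FPKM in WT (log2 fold change -0.35 ± 0.08, edgeR adjusted p = 0.022, lost in 3 cases with a library left out). The number that passed was 0 without replicate 2 or 4 labelled Mrp4 KO or WT replicate 4, and 2 without WT replicate 2 or 3. Scaling by library size alone added 1 rise. Of 21 tested glutathione S-transferases, 0 rose, 2 fell and 19 did not pass. The number that passed was 7 without WT replicate 2, 2 without replicate 2 labelled Mrp4 KO and 1 without each other library. Gstp2 was at 8.54 ± 1.71 FPKM in the libraries labelled Mrp4 KO and 12.8 ± 1.04 FPKM in WT (log2 fold change -0.64 ± 0.14, edgeR adjusted p = 0.0177); it is nearly identical to Gstp1, so reads may be divided between them wrongly. Gsta3 was at 91.1 ± 10.8 FPKM in the libraries labelled Mrp4 KO and 136 ± 35.4 FPKM in WT (edgeR adjusted p = 0.0449), with groups that overlapped and a call lost in 7 cases with a library left out and in 6 of 9 other settings. With library size alone, 1 transferase rose and 1 fell.

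Among 11 other enzymes of epoxides and quinones and their electron donors, 2 rose and 1 fell; 5 passed without WT replicate 2 and 1 without each other library. Por, cytochrome P450 reductase, was at 135.21, 143.1, 149.56 and 131.05 FPKM in the libraries labelled Mrp4 KO and at 205.1, 188.08, 216.44 and 219.08 FPKM in WT (log2 fold change -0.63 ± 0.08, edgeR adjusted p = 0.00173), opposite in direction to Ephx1. The cytochrome b5 reductase genes Cyb5r3 (log2 fold change 0.30, edgeR adjusted p = 0.0448) and Cyb5r1 (log2 fold change 0.40, edgeR adjusted p = 0.0481) rose, and both calls were lost in 7 of the 8 cases with a library left out. Ephx2, the soluble epoxide hydrolase, and Nqo2 were tested and did not pass.

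**Figure D4:**
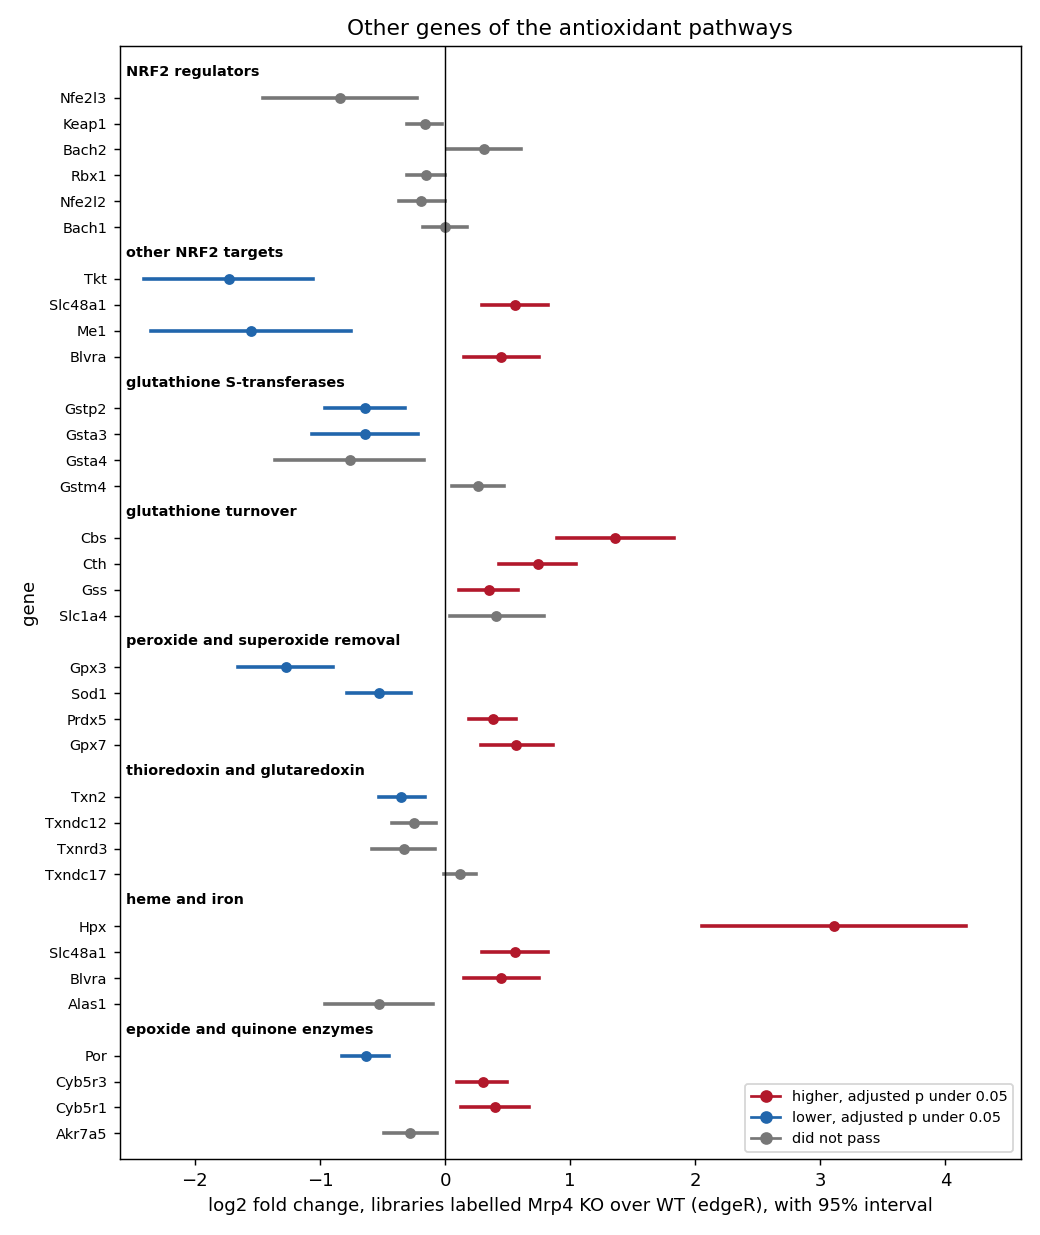
Log2 fold change, libraries labelled Mrp4 KO over WT (horizontal axis), with the 95% interval from edgeR for the named genes of the 8 pathway lists (vertical axis); red and blue mark genes higher and lower at an adjusted p under 0.05, and grey those that did not pass. Hpx (3.11) and Cbs (1.36) lie highest and Tkt (-1.73) lowest, and the regulators of NRF2 are grey throughout.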

How the data were processed

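The members and lists were chosen with earlier results of these data known. Libraries of polyadenylated RNA from Trizol extracts were read in pairs of 100 bases on a BGISEQ-500, per the labels' protocols. The submitters' processing notes name the build mm9 and the tool Bowtie2. Those notes as used here do not say what assigned reads to genes. The authors deposited, for each sample and gene, an expected count (an estimated count that need not be whole), a transcript length and an FPKM value, per the file headers. Genes missing from a sample's file were taken as 0. FPKM in the deposited table of all samples differed by at most 0.

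Expected counts were rounded. The test was edgeR 4.0.16 under R 4.3.3 (filterByExpr, TMM, glmQLFit with robust=TRUE, glmQLFTest, two-sided), with genotype as the only term. The filter left 14257 genes and removed 4434. Adjustment was that of Benjamini and Hochberg over all genes tested, with a threshold of 0.05. The SE is the size of the log2 fold change over the square root of F. Alternatives used DESeq2 1.42.0 and limma 3.58.1. The fits were tested on simulated data, in which DESeq2 had a larger share of false calls than edgeR. Those data were drawn with the spread that edgeR had estimated and with far fewer changed genes than passed here. They therefore do not rank the tools for these libraries. Reads carried no molecular identifiers. Strand is not mentioned for the counting, and overlapping genes may share reads.

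The named genes were Abcc4, the 10 members, Nfe2l2, Keap1, Bach1 and, from each of 8 pathway lists, up to 4 genes ranked by p whose mean reached 1 FPKM in either group. Itgax, Cd163, Clec4f, Alb, Ephx2, Nqo2, Nfe2l1, Adipoq, Lep, Plin1, Retn, Cfd, Wt1 and Crisp1 come from the lists but were named after their values were seen. The same holds for Fabp4, Lyz2, Trem2, Timd4, Adam7, Lcn8 and Rnase10. Adgre1 and Hbb-bs were matched by gene number to the older symbols in the files. Same-numbered libraries did not deviate together, so the numbers were not taken as pairs.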

Additional observations from a re-analysis of the deposited data

Results flagged for a closer look

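Each gene named by the rule was examined in each group for a library far from the other 3, and 4 such cases were found in 86 groups of 4; chance alone flags about 1 in 20 groups. WT replicate 1 was high for Txnrd1, at 25.97 FPKM against 23.15 to 23.36 FPKM in the other WT libraries, and the log2 fold change of Txnrd1 without that library was -0.17. WT replicate 2 was high for Bach2, at 0.98 FPKM against 0.74 to 0.76 FPKM, and for Gstm4, at 21.44 FPKM against 16.16 to 16.33 FPKM. Replicate 5 labelled Mrp4 KO was low for Rbx1, at 19.22 FPKM against 21.28 to 21.39 FPKM in the other 3 of its group.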

How the results depend on the processing

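Hmox1 and Ephx1 kept their direction in every alternative and passed in all but the fit with the replicate number as a block (Hmox1 0.47, adjusted p = 0.0682; Ephx1 0.75, adjusted p = 0.102) and, for Ephx1 (0.77), a threshold of 0.01. Same-numbered libraries did not deviate together over all genes (correlations of 0.01, -0.07 and -0.13), so the numbers were not taken as pairs. These correlations cannot exclude a pairing that acts on some genes. Replicate 5 labelled Mrp4 KO and WT replicate 3 have no partner of the same number, so the block fit had little left to estimate the spread from. With the block 141 genes, 0 of the 10 members and 2 of the genes in the 8 lists passed. At a threshold of 0.01 these counts were 551, 1 and 6, and at 0.1 they were 4178, 4 and 35. Members that passed numbered 4 with DESeq2 and 2 with edgeR, where Gsr (-0.30) and Txnrd1 (-0.21) were added, as they were at a threshold of 0.1. With each library left out, 1172 to 3683 genes passed (2606 with all), 2 to 4 members and 10 to 38 listed genes (23 with all); the count of genes was 3683 without WT replicate 2 and at most 1654 without any other library. DESeq2 called 4 of the S-transferases (2 with edgeR), 2 thioredoxin and glutaredoxin genes (1) and 1 regulator (0). With each library left out, the lowest and highest log2 fold changes were -0.38 and -0.24 for Gsr, -0.24 and -0.16 for Txnrd1, 0.19 and 0.36 for Slc7a11, -0.057 and 0.071 for Gclc and -0.068 and 0.043 for Srxn1. Values near 0 changed sign. Srxn1 was at 0.057 with library size alone, 0.002 with upper quartile factors, 0.003 with the stricter filter and 0.051 and 0.055 on log2(FPKM + 1) and log2(FPKM + 0.1). Cat was at 0.002 with library size alone, and Abcc4 at 0.018 with library size alone, 0.028 and 0.035 on the FPKM scales and 0.015 with the block. With TMM, Srxn1 was at -0.013, Cat at -0.066 and Abcc4 at -0.050. The TMM factors were 1.007 to 1.037 in the libraries labelled Mrp4 KO and 0.959 to 0.992 in WT. Library size alone leaves these factors out, which raises the log2 fold change of each gene by nearly the same amount. The FPKM values carry no TMM factors either. The cause of the other shifts was not tested. Library size alone moved the median of all genes by 0.07 and the share of higher calls to 74.1%, against 55.9% with TMM. Intervals cover only these libraries, and of the 10 members Nqo1 had the lowest counts.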
